A study of Mus musculus with 6 samples.

Results

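The 10 genes described here mark type 1 alveolar cells, the flat cells that line most of the gas-exchange surface of the lung. They are Ager, Hopx, Pdpn, Aqp5, Rtkn2, Akap5, Cldn18, Vegfd, Clic5 and Gprc5a, and they were picked by name out of the 47069 genes in the table of lung read counts. 9 of the 10 stand there under these symbols, and Vegfd stands under its older symbol Figf and was found by its identifier, ENSMUSG00000031380. All 10 had enough counts to be tested, among 17037 genes in all. The lungs came from 3 WT mice (WT4 to WT6) and 3 Zpbp2 KO mice (KO4 to KO6), and each mouse gave 1 library. WT mice were C57BL/6J, and KO mice carried a constitutive deletion of exons 1 to 3 of Zpbp2 in the same C57BL/6J background. Adult mice of both groups were born and kept in 1 colony under the same light/dark cycle, and the lungs were collected at ZT10, that is 10 h after lights on. Whole lung was sequenced, so fewer type 1 cells and less RNA per type 1 cell cannot be told apart in any value below. RNA of these genes from any other cells cannot be told apart from that of type 1 cells either.

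Total counts ran from 19981428 to 46796908 per mouse, and 3 counts, the smallest number taken as detected, amounted to 0.0629 to 0.148 CPM (counts scaled to a common library size). This floor covers counting error only. Zpbp2 had 1, 2 and 2 counts in the WT mice and 0 counts in every KO mouse, which is too few to check the genotype labels firmly. Xist lay between 715 and 994 CPM in all 6 mice, and of the 4 Y-linked genes looked up none had more than 9 counts in any mouse. Nothing in the labels says which mice shared a litter or an extraction, so a difference of that kind between the groups cannot be told apart from genotype. The edgeR p-values set the group difference against the spread between the 3 mice of a group, with the estimate of that spread drawn in part from all tested genes. KO5 was the most deeply sequenced mouse and stood apart by its B cell genes, and KO4 stood apart from the other KO mice by higher levels of the type 1 genes and of other epithelial lists, as given below.

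Type 1 cells are very thin and broad and lie against the capillaries, where oxygen and carbon dioxide pass through them. They arise in development from a shared progenitor and in adult lung mainly from type 2 cells, the cuboidal cells that make surfactant, by flattening and spreading. The 10 genes cover several sides of that cell. Ager encodes RAGE, a receptor of the immunoglobulin superfamily that is held on the basal membrane of type 1 cells, and Gprc5a encodes an orphan receptor of the G protein-coupled family induced by retinoic acid. Aqp5 is a water channel of the apical membrane, Cldn18 a claudin of the tight junctions, Clic5 a protein that links the membrane to the cortical actin layer, and Pdpn (podoplanin, also called T1-alpha) a mucin-like surface glycoprotein. Rtkn2 encodes rhotekin 2, and Akap5 an anchoring protein that holds protein kinase A and calcineurin at the membrane. Hopx is a homeodomain protein that does not bind DNA itself, and Vegfd is a secreted growth factor that acts on lymphatic and blood endothelium.

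All 10 markers were plainly present. On the TPM scale, which divides counts by the exon length of each gene before scaling, Ager came first with 2137 ± 151 (SD, n = 6 mice) and ranked 28 among 16972 tested genes with a known length. Hopx followed with a level of 1116 ± 86.5 TPM, and Gprc5a with 725 ± 71.3 TPM. Clic5 (478 ± 29.4 TPM) and Cldn18 (468 ± 39.7 TPM) overlapped over the 6 mice and could not be ordered. Aqp5 (285 ± 35.1 TPM) and Pdpn (251 ± 20.7 TPM) overlapped too, and by group means Aqp5 stood above Pdpn in WT mice and below it in KO mice. Akap5 (186 ± 17.9 TPM) and Rtkn2 (142 ± 21.8 TPM) overlapped as the next pair in their ranges over the 6 mice, although within each mouse Akap5 stood above Rtkn2. Vegfd was lowest with 79.0 ± 11.1 TPM and ranked 1786. Neighbours in this order other than those 3 pairs had ranges over the 6 mice that did not overlap.

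**Figure D1:**
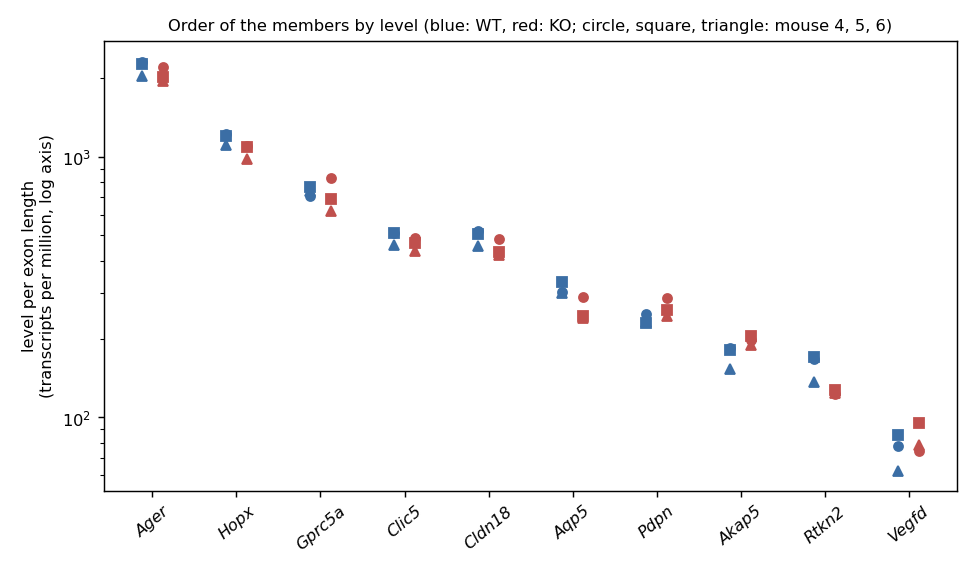
Level of each type 1 gene per exon length (TPM, log axis), with 1 point per mouse, WT in blue and KO in red. The genes run from Ager, with 1946 to 2314 TPM, down to Vegfd, with 62.5 to 95.4 TPM, and the KO points of Rtkn2 (123 to 128 TPM) lie below its WT points (137 to 171 TPM).

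The question put to these genes was whether they differed between the lungs of KO and WT mice. Rtkn2 fell, by 24.3% (95% confidence interval 16.3 to 31.5%), and it was the only gene of the 10 to pass an adjusted p of 0.05, where 6.39% of all tested genes did in either direction, 2.67% as lower and 3.72% as higher in KO mice. None of the 10 also reached the fold threshold of the study, a log2 fold change of 1.5 in size, which 0.640% of all genes did together with the p. The point estimate was lower in KO mice for 7 genes and higher for Pdpn, Akap5 and Vegfd. The median log2 fold change of the 10 genes was -0.15, and that of all tested genes was 0.00. In 6 of the 10 genes the 3 KO values and the 3 WT values did not overlap, which was so for 32.6% of all genes. Hopx, Aqp5, Rtkn2, Cldn18 and Clic5 were lower in every KO mouse than in any WT mouse (15.6% of all genes), and Akap5 was higher (17.0% of all genes). An unadjusted p under 0.05 was seen for 4 of the 10, and for 25.5% of all genes. Read against these backgrounds, the number of genes called stood close to that of the whole table. Values below are CPM scaled by the TMM method and are given in the order of the mice, adjusted p-values are from the quasi-likelihood test of edgeR over all 17037 genes, and an exact permutation test on a single gene cannot go below a two-sided p of 0.1 with 3 against 3 mice.

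**Figure D2:**
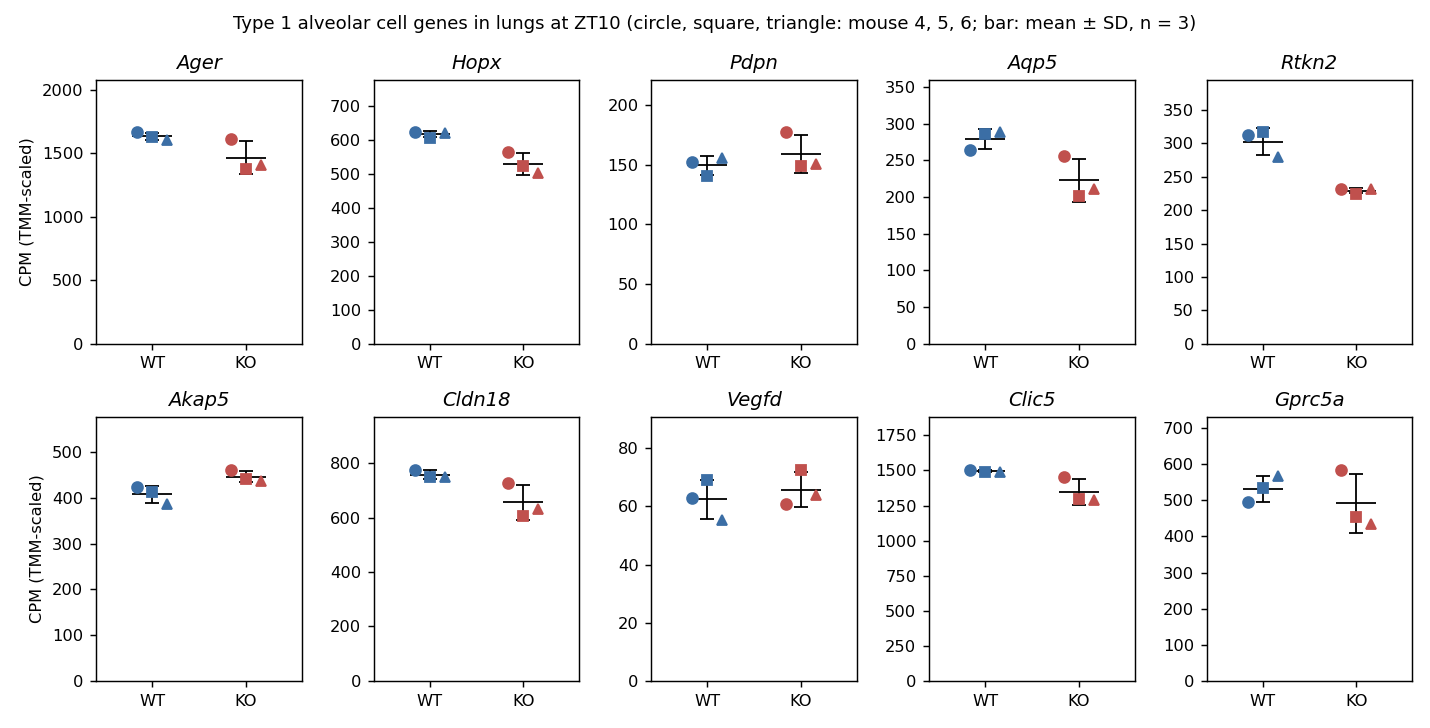
CPM of each type 1 gene in each mouse, WT in blue and KO in red, 1 panel per gene, with each group's mean ± SD (n = 3) as lines and bars and mice 4, 5 and 6 as circle, square and triangle. Rtkn2 shows the KO mice at 224 to 232 CPM below the WT mice at 280.0 to 316 CPM, and in 9 of the 10 panels KO4 is the highest KO mouse.

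Rtkn2 (ENSMUSG00000037846, chr10:67979570-68059740, plus strand, GRCm38) had 312, 316 and 280.0 CPM in WT4, WT5 and WT6 and 232, 224 and 231 CPM in KO4, KO5 and KO6. The KO mice lay close together, with a coefficient of variation of 1.83% against 6.57% in WT mice, and all 3 sat under the lowest WT mouse. The log2 fold change was -0.40 (SE 0.0618, n = 3 mice per group, edgeR adjusted p = 0.0211, exact permutation p = 0.1). The call rested on few mice: without WT4, WT5 or KO6 the adjusted p was 0.0690, 0.108 or 0.0689, and in the 6 fits that left out 1 mouse each the log2 fold change stayed between -0.46 and -0.37. Calls over all genes also dropped without WT4 (1.48%), WT5 (0.0057%) or KO6 (0.672%), from 6.39% with all mice. An antisense gene, Gm16212, overlaps 216 of the 5547 exon bases of Rtkn2 and had 1 to 4 counts per mouse.

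Akap5 (ENSMUSG00000021057, chr12:76324891-76334153, plus strand), whose product like that of Rtkn2 works on the inner side of the membrane, lay the other way. It had 423, 414 and 387 CPM in the WT mice and 461, 442 and 436 CPM in the KO mice. Each KO mouse was above each WT mouse, and the gene did not pass the test over all genes: the log2 fold change was 0.13 (SE 0.0574, n = 3 per group, edgeR adjusted p = 0.209, exact permutation p = 0.1), a point estimate 9.46% higher in KO mice with an interval from -0.317 to 20.2%. The ratio of Rtkn2 to Akap5 counts, which does not depend on any scaling of the libraries, was 0.738, 0.765 and 0.724 in WT lungs but 0.503, 0.508 and 0.531 in KO lungs. The means were 0.742 ± 0.0210 and 0.514 ± 0.0146 (SD, n = 3 each). This pair was chosen after its values were seen, as a gene lower and a gene higher in every KO mouse, so that the groups do not overlap is no further finding.

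The point estimates of the membrane and junction genes were lower in KO mice except that of Pdpn, and none of these genes passed. Aqp5 (ENSMUSG00000044217, chr15:99590782-99594829, plus strand) had 264, 287 and 288 CPM in the WT mice and 257, 202 and 211 CPM in the KO mice. KO4 lay just under WT4, and KO5 and KO6 were well under every WT mouse. The point estimate was 20.2% lower in KO mice (interval 6.63 to 31.9%, log2 fold change -0.33, SE 0.0967, n = 3 per group, edgeR adjusted p = 0.0916).

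Cldn18 (ENSMUSG00000032473, chr9:99689461-99717267, minus strand) had 775, 751 and 748 CPM in the WT mice and 728, 607 and 631 CPM in the KO mice. Its WT mice differed by little (coefficient of variation 1.99%), and its KO mice by more (9.76%), with KO4 again nearest to WT. The log2 fold change was -0.21 (SE 0.0784, n = 3 per group, edgeR adjusted p = 0.152). Clic5 (ENSMUSG00000023959, chr17:44188584-44280172, plus strand) had 1505, 1492 and 1491 CPM in the WT mice and 1454, 1297 and 1291 CPM in the KO mice. Clic5 was the steadiest of the 10 genes in WT lungs, with a coefficient of variation of 0.508%, and its KO mice spread over 6.85%. Its log2 fold change was -0.15 (SE 0.0684, n = 3 per group, edgeR adjusted p = 0.221). Pdpn (ENSMUSG00000028583, chr4:143267431-143299564, minus strand) had 152, 141 and 156 CPM in the WT mice and 177, 149 and 151 CPM in the KO mice. Only KO4 was above the WT range, and the log2 fold change of 0.09 (SE 0.0808, edgeR adjusted p = 0.550) had an interval from -0.10 to 0.28.

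Both receptors overlapped between the groups. Ager (ENSMUSG00000015452, chr17:34597862-34600936, plus strand) had 1662, 1627 and 1607 CPM in the WT mice and 1611, 1374 and 1407 CPM in the KO mice. KO4 fell inside the WT range and the other 2 KO mice lay below it. The log2 fold change was -0.16 (SE 0.0772, n = 3 per group, edgeR adjusted p = 0.255), with an interval from a 20.9% lower to a 1.72% higher level. Gprc5a (ENSMUSG00000046733, chr6:135065651-135084709, plus strand) had 495, 534 and 567 CPM in the WT mice and 584, 455 and 434 CPM in the KO mice. KO4 was above all WT mice and KO5 and KO6 were below all of them, and Gprc5a had the widest KO spread of the 10 genes (coefficient of variation 16.6%). Its log2 fold change was -0.12 (SE 0.119, edgeR adjusted p = 0.591).

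Hopx (ENSMUSG00000059325, chr5:77086988-77115121, minus strand), the transcriptional regulator of the set, had 622, 606 and 621 CPM in the WT mice and 563, 522 and 501 CPM in the KO mice. All 3 KO mice were under the WT range. The point estimate was 14.2% lower (interval 5.21 to 22.4%, log2 fold change -0.22, SE 0.0612, n = 3 per group), and the edgeR adjusted p of 0.0773 missed the threshold. The antisense gene Hopxos overlaps 412 of the 1516 exon bases of Hopx. The strand setting of the counting is not given in the sources used here, so how reads of the overlap were counted is not known. Hopxos had 16 to 60 counts per mouse, against 10156 to 24876 for Hopx.

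Vegfd (chrX:164373378-164402650, plus strand), the secreted factor, had 62.7, 69.0 and 55.5 CPM in the WT mice and 60.7, 72.5 and 64.0 CPM in the KO mice. The groups overlapped throughout, and the log2 fold change was 0.08 (SE 0.0978, edgeR adjusted p = 0.664, interval -0.15 to 0.31). It was the only gene of the 10 whose highest KO mouse was not KO4.

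**Figure D3:**
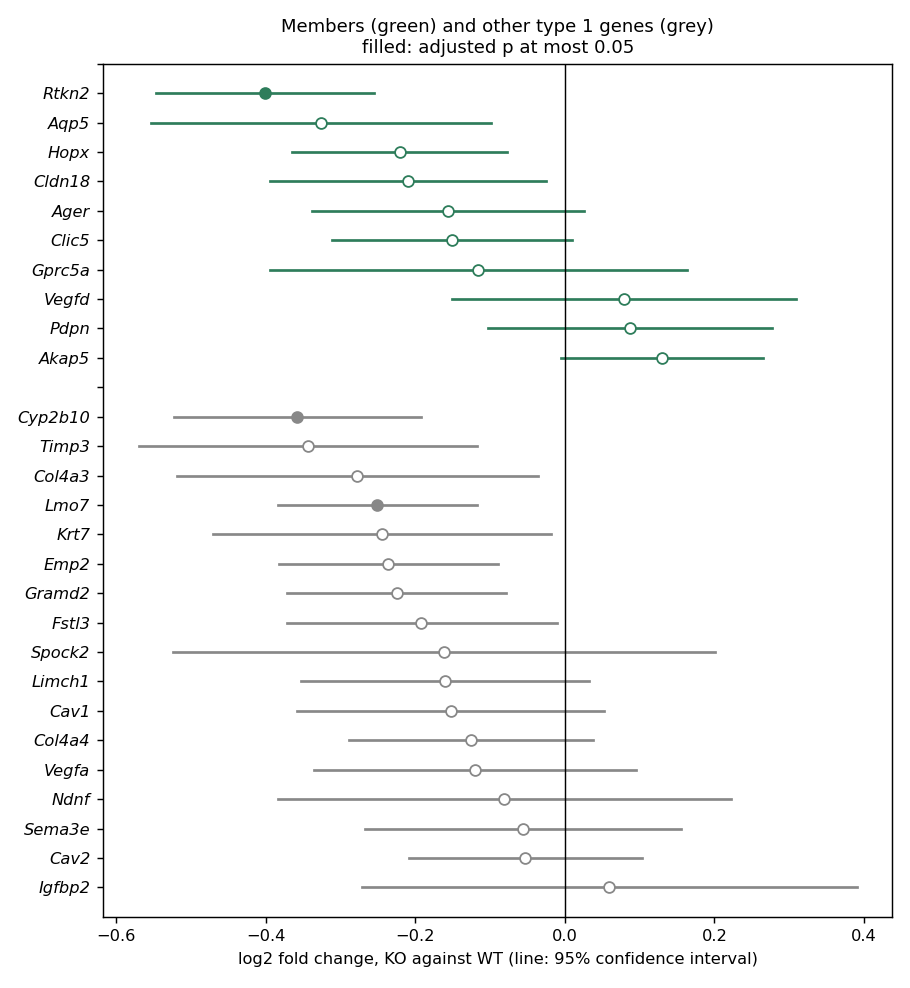
Log2 fold change (KO minus WT) of the 10 type 1 genes (green) and of 17 further type 1 genes (grey) from the edgeR fit. Lines are 95% confidence intervals with n = 3 mice per group, and filled points mark an adjusted p of at most 0.05. Among the green points Rtkn2 lies lowest at -0.40 and is the only filled one, and Akap5, Pdpn and Vegfd lie above 0 with intervals that include it. Among the grey points Cyp2b10 (-0.36) and Lmo7 (-0.25) are filled, and only Igfbp2 (0.06) lies above 0.

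The 3 KO mice did not behave alike. Measured from the mean of the WT mice, the median deviation of the 10 genes on the log2 CPM scale was 0.02, 0.00 and -0.01 in WT4, WT5 and WT6, -0.04 in KO4, -0.23 in KO5 and -0.24 in KO6. By these medians KO4 sat near the WT mice, and KO5 and KO6 sat lower by a similar amount. Rtkn2 did not follow this split and was as low in KO4 as in KO6. The split was not limited to these 10 genes: in summed CPM KO4 was also the highest KO mouse for 17 further type 1 genes (10040.1 against 8748 and 8784), type 2 genes (24691 against 19248 and 23036) and club and ciliated cell genes (30348 against 22233 and 27868). Nor was it limited to epithelium, as endothelial (3526 against 3288 and 3443) and fibroblast genes (2005 against 1888 and 1818) showed it too. KO4 was not the highest KO mouse for mesothelial, monocyte, B cell or red cell genes. Within the endothelial list Car4, Ednrb and Kdr were lowest in KO4 (Kdr 299 against 416 and 462 CPM). Cldn5 lay between the other KO mice there, and the rest of that list was highest in KO4. When KO4 was left out, Aqp5 (edgeR adjusted p = 0.0223), Cldn18 (0.0362) and Hopx (0.0398) were called lower as well as Rtkn2 (0.0312), which made 4 of 10 genes against 7.30% of all genes, and the median of the 10 genes was -0.25. KO4 was by its median the KO mouse nearest to WT, so a wider difference without it follows in part from leaving it out and is no further finding. The same holds for the lists below in which KO4 was the highest KO mouse. Rtkn2 alone was called without KO5 (5.48% of all genes, median of the 10 genes -0.12) and without WT6 (0.368% of all genes). None of the 10 was called without WT4 (1.48% of all genes), KO6 (0.672%) or WT5 (0.0057%), where the last share was 1 gene of the whole table. DESeq2 on all 6 mice called Rtkn2 (adjusted p = 4.18e-07), Hopx (0.00616) and Aqp5 (0.0140), 3 of 10 against 11.9% of all genes.

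**Figure D4:**
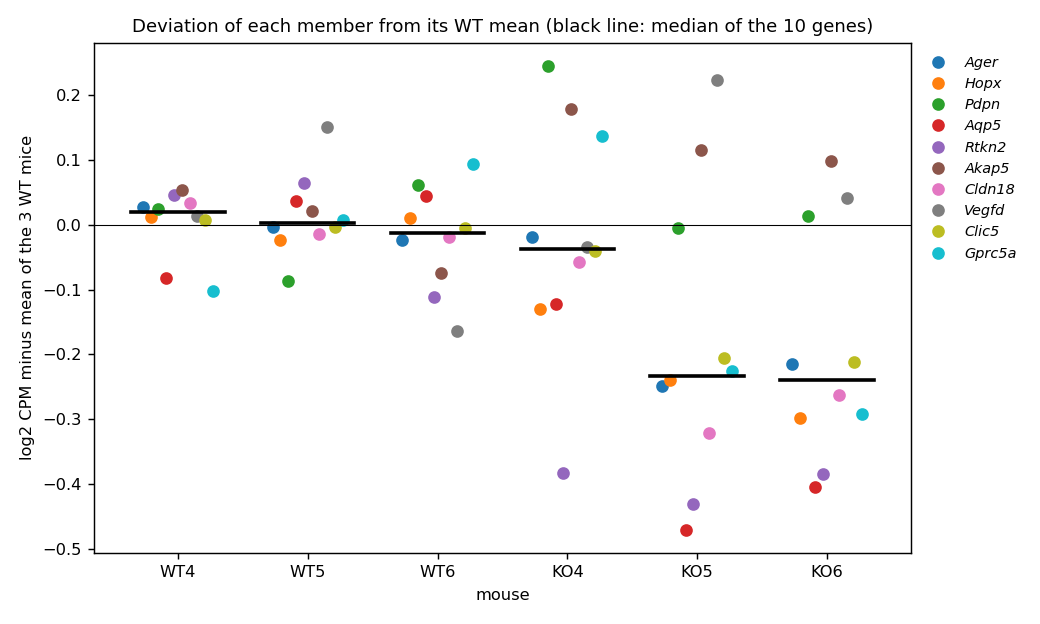
Deviation of each type 1 gene from its WT mean in each mouse (log2 CPM), with 1 coloured point per gene and a black line at the median of the 10 genes. The medians are 0.02, 0.00 and -0.01 in the WT mice, -0.04 in KO4, -0.23 in KO5 and -0.24 in KO6, and Rtkn2 is low in all 3 KO mice.

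Ratios of counts to Ager, which like the ratio above need no scaling, overlapped between the groups for some genes and not for others. Clic5 had 0.905, 0.917 and 0.928 counts per Ager count in WT lungs, and KO lungs had 0.902, 0.944 and 0.918, so these ranges overlapped. The ratios of Hopx to Ager (0.378 ± 0.00780 in WT, 0.362 ± 0.0157 in KO mice) and of Aqp5 to Ager (0.171 ± 0.0111 and 0.152 ± 0.00657) overlapped as well. Cldn18 per Ager count was 0.464 ± 0.00272 in WT mice and 0.447 ± 0.00538 in KO mice without overlap. Rtkn2 per Ager count was 0.185 ± 0.0103 and 0.157 ± 0.0115, also without overlap, and Akap5 per Ager count was 0.250 ± 0.00774 and 0.306 ± 0.0180, with every KO mouse above every WT mouse. Errors are SD with n = 3 mice per group. Ratios to Ager were not formed for Pdpn, Vegfd and Gprc5a, and the share of such ratios without overlap over all genes was not computed. The groups of Rtkn2, of Akap5 and of Cldn18 were already known not to overlap, so their ratios are no further finding. Over the 6 mice, log2 CPM of Ager followed that of Cldn18 (Pearson r = 0.994) and Clic5 (r = 0.986) most closely, and the lowest r among all pairs of the 10 genes was that of Rtkn2 with Akap5 (-0.66). With group means removed, r for Rtkn2 with Akap5 turned to 0.82, and that of Ager with Cldn18 was 0.996. Vegfd had a negative r over the 6 mice with every other gene of the 10 but Akap5 (0.42). With group means removed its r was positive with Akap5 (0.31) and Rtkn2 (0.53) and lowest with Pdpn (-0.78). These r are a description over 6 libraries that share 2 groups and 1 scaling. Beyond the 10 genes, the profile most like their mean over the 6 libraries was that of Pygo1 (r = 0.999) and Spry4 (r = 0.999), followed by Polr2m (0.997), Afap1l1 (0.995) and Rasip1 (0.994), and with group means removed Pygo1 (0.998), Bmp1 (0.998), Spry4 (0.998), Fer1l4 (0.997) and Polr2m (0.996) came first. With 17037 genes and 6 points, values of this size are a ranking only.

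The stretches of 250 bases just before the annotated starts of Ager, Clic5, Hopx and Akap5 are printed as examples: the gene with the highest level, the gene steadiest in WT lungs, the transcriptional regulator and the gene that stood higher in every KO mouse. They are RefSeq sequences of GRCm38.p6, read 5′ to 3′ along each gene's own strand, at chr17:34597600-34597849 (plus), chr17:44188322-44188571 (plus), chr5:77115124-77115373 (minus) and chr12:76324641-76324890 (plus). Capitals mark a match to the NKX2 motif, which is the only match to the 4 searched motifs in these 4 windows. Windows of other genes, and of a second start of Hopx, hold further matches and are described after them.
Ager: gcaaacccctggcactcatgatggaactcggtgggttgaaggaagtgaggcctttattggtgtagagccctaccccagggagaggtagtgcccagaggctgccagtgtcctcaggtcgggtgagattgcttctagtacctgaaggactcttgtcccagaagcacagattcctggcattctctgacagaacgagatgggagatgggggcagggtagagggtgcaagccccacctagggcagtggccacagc
Clic5: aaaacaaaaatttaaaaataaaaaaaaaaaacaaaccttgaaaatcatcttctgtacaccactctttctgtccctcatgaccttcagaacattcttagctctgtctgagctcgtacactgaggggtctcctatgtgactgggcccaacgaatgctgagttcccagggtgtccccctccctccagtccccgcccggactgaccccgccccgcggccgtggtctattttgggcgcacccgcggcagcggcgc
Hopx: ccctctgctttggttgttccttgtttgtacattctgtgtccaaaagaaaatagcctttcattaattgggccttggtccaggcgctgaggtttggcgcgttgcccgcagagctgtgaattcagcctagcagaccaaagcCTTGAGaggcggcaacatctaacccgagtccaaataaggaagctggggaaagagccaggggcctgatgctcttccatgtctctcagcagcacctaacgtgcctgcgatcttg
Akap5: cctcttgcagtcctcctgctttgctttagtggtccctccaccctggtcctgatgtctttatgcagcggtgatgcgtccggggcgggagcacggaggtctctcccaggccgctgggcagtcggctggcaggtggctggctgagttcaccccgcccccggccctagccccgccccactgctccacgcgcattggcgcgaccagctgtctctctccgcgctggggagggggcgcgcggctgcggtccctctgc

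RefSeq start windows were found for 8 of the 10 genes, 10 windows in all. They were searched on both strands for the core letters of factors known in alveolar cells: GGAATG, bound by TEAD factors, CTCAAG, bound by NKX2 factors, TGTTTAC, bound by forkhead factors, and CACGTG, an E-box bound by clock factors among others. None of these letter strings contains another. The TEAD letters were in 0 of the 10 windows and in 12.6% of all 32851 windows of that length. The NKX2 letters were in 2 windows, of Hopx and Vegfd, and in 13.3% of all windows, and the forkhead letters were in 1, of Pdpn, and in 3.17% of all. The E-box letters were in 3 windows, of Pdpn, Aqp5 and a second start of Hopx, and in 6.02% of all. A match says only that the letters are there.

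A further 17 genes of type 1 cells were all tested, and 16 of them had a lower point estimate in KO mice, as did 8415 of all 17037 genes, with a median log2 fold change of -0.16. 2 of the 17 fell, where 2.67% of all genes did. Cyp2b10, a cytochrome P450, fell from 412, 426 and 476 CPM to 346, 328 and 352 CPM (log2 fold change -0.36, SE 0.0701, n = 3 per group, edgeR adjusted p = 0.0345). Lmo7, a LIM domain protein of cell junctions, fell from 762, 773 and 783 CPM to 682, 633 and 633 CPM (log2 fold change -0.25, SE 0.0567, edgeR adjusted p = 0.0475). The other 15 did not pass, among them the membrane protein Emp2 (log2 fold change -0.24, adjusted p = 0.0683) and Gramd2 (-0.23, adjusted p = 0.0767), and in 6 of the 17 the KO mice lay below the WT mice without overlap (15.6% of all genes). Both calls were lost when any 1 mouse other than KO4 was left out, and without KO4 5 of the 17 were called (7.30% of all genes), as were 5 with DESeq2 (11.9% of all genes).

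Type 1 cell identity depends on NKX2-1 and on the Hippo pathway, in which the kinases LATS1 and LATS2 restrain the coactivators YAP and TAZ (Wwtr1) that act through TEAD factors. Of 16 genes of this kind, 2 fell (2.67% of all genes) and 15 had a lower point estimate (8415 of 17037 over all genes), with a median log2 fold change of -0.24. Tead4 had 32.0, 31.9 and 30.3 CPM in the WT mice and 26.2, 22.9 and 21.9 CPM in the KO mice (log2 fold change -0.41, SE 0.0803, n = 3 per group, edgeR adjusted p = 0.0345). Yap1 had 176, 188 and 175 CPM in the WT mice and 153, 140.0 and 152 CPM in the KO mice (-0.28, SE 0.0591, adjusted p = 0.0422). In both genes all KO mice lay below all WT mice. Nkx2-1 (log2 fold change -0.30, adjusted p = 0.0519) and Lats2 (-0.22, adjusted p = 0.0647) missed the threshold. Both calls were lost without any 1 mouse other than KO4, and without KO4 5 of the 16 were called (7.30% of all genes). DESeq2 called 5 of the 16 lower, where it called 11.9% of all genes in either direction. Tead4 and Yap1 are not particular to type 1 cells.

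Genes of the state between type 2 and type 1 cells numbered 10, and 2 of them fell (2.67% of all genes), with a median log2 fold change of -0.20. Cdkn1a, which encodes the cell cycle inhibitor p21, had 49.8, 59.2 and 62.0 CPM in the WT mice and 33.7, 36.1 and 41.1 CPM in the KO mice (log2 fold change -0.62, SE 0.104, edgeR adjusted p = 0.0249). Areg, the EGF receptor ligand amphiregulin, had 5.47, 5.94 and 10.8 CPM in the WT mice and 2.74, 1.83 and 2.42 CPM in the KO mice (-1.69, SE 0.306, adjusted p = 0.0286). Both are also expressed by immune and other cells. Sfn, or stratifin (log2 fold change -0.53, adjusted p = 0.0644) and the keratin Krt8 (-0.48, adjusted p = 0.0668) did not pass. Without WT5, WT6 or KO6 none of the 10 was called, and without WT4 only Cdkn1a was. DESeq2 called 4 of the 10 lower and 1 higher (11.9% of all genes in either direction).

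Among the partners of the 10 genes, only the list of RAGE ligands and downstream genes held genes that rose in the quasi-likelihood fit. Of 8 ligands and downstream genes 3 rose (3.72% of all genes): S100a9 from 20.3, 22.6 and 14.6 CPM to 40.9, 38.1 and 46.1 CPM (log2 fold change 1.12, SE 0.161, edgeR adjusted p = 0.0186), S100a8 (1.01, SE 0.166, adjusted p = 0.0241) and S100a4 (0.95, SE 0.165, adjusted p = 0.0266). These are calcium-binding proteins of neutrophils and monocytes. Nfkb1, a transcription factor downstream of RAGE, did not pass (log2 fold change 0.19, adjusted p = 0.0864), and the list's median was 0.17. The RAGE ligands Hmgb1 (log2 fold change 0.004, edgeR adjusted p = 0.975) and S100b (0.022, adjusted p = 0.979) did not pass either. None of these 3 calls was left without WT4, WT5 or KO6, and S100a9 alone was left without WT6. All 10 monocyte genes rose in the same KO mice, as given below, and the part of monocyte content in the S100 values was not tested.
Relatives of the channel and junction genes gave 1 call in the quasi-likelihood fit. Of 12 other claudins tested, Cldn5, the claudin of endothelium, fell from 383, 366 and 360.0 CPM to 299, 280.0 and 316 CPM (log2 fold change -0.31, SE 0.0620, adjusted p = 0.0362), and 11 of the 12 had a lower point estimate. This call was lost when any 1 of the 6 mice was left out, 5 of the 12 had an unadjusted p under 0.05, and DESeq2 called Cldn3, Cldn5 and Cldn7 lower. Of 5 other aquaporins tested (of 10 looked up) none passed, and Aqp1, the aquaporin of capillaries, had a log2 fold change of -0.30 (adjusted p = 0.0630). None passed among 4 other CLIC genes (Clic4 -0.27, adjusted p = 0.0552), 2 other GPRC5 genes (Gprc5c -0.15, adjusted p = 0.581), 9 partners of AKAP5 (Prkar2a -0.19, adjusted p = 0.0877), 7 partners of podoplanin (Cd44 0.31, adjusted p = 0.0812) or 9 VEGF ligands and receptors (Nrp2 0.28, adjusted p = 0.0553). All these are log2 fold changes with edgeR adjusted p-values. At an unadjusted p under 0.05 these lists held 2 aquaporins, 1 CLIC gene, 0 GPRC5 genes, 1 AKAP5 partner, 1 podoplanin partner and 1 VEGF gene, where 25.5% of all genes had one. DESeq2 called Aqp1, Clic4 and Prkar2a lower and Cd44 and Nrp2 higher, and none of the GPRC5 genes, where it called 11.9% of all genes.

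**Figure D5:**
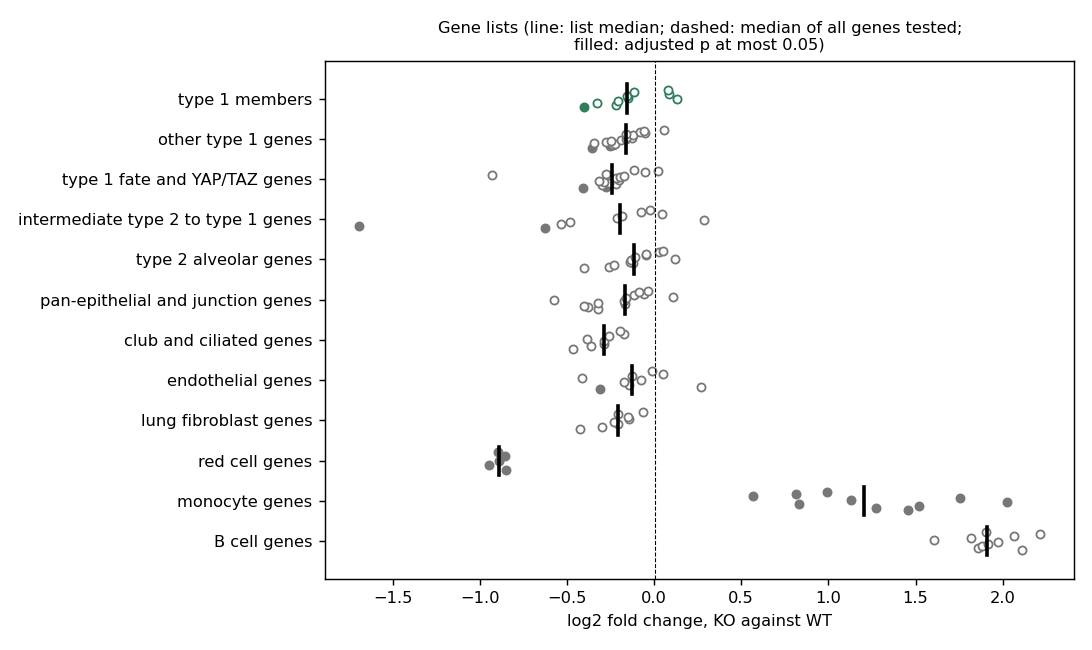
Log2 fold change (KO minus WT) of each tested gene in the type 1 list, in related alveolar lists and in lists of other cell types, with 1 point per gene, filled at an adjusted p of at most 0.05, a line at each list's median and a dashed line at the median of all tested genes. The type 1 genes have a median of -0.15. The B cell genes have the median furthest out (1.91), with none called. Every gene was called in the monocyte list (1.20) and the red cell list (-0.89).

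Lower point estimates were not limited to type 1 genes. None of 12 type 2 genes passed, and their median log2 fold change was -0.11, with Sftpd, surfactant protein D, at -0.40 (edgeR adjusted p = 0.110). Sftpc per Ager count was 7.87 ± 0.728 in WT mice and 7.45 ± 0.626 in KO mice (SD, n = 3 each), and the groups overlapped. None of 13 general epithelial and junction genes (median -0.17, Esrp2 -0.32 with adjusted p = 0.0978) or 8 club and ciliated cell genes (median -0.29, Foxj1 -0.47 with adjusted p = 0.127) passed. Of 9 endothelial genes Cldn5 alone fell (median -0.13). None of 8 fibroblast genes (median -0.21), 7 mesothelial genes (median -0.30) or 5 tested lymphatic and reticular genes (median 0.08) passed, and Ccl21a and Ccl19 of the last list were at 0 in all mice. At an unadjusted p under 0.05 there were 2 type 2 genes, 4 epithelial genes, 2 club and ciliated genes, 3 fibroblast genes, 0 mesothelial genes and 2 lymphatic and reticular genes. DESeq2 called 2, 3, 2, 2, 0 and 2 genes of these lists, all lower in KO mice except Cxcl13. The shares over all genes were 25.5% at the unadjusted p and 11.9% with DESeq2.

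Genes of blood cells moved with genotype, and each sum is given as summed CPM of the list. The 10 monocyte genes rose without exception (median log2 fold change 1.20) and summed to 252 to 311 in WT and 485 to 599 in KO mice. Plac8 was the most significant (log2 fold change 1.46, adjusted p = 0.0109). The 5 red cell genes fell without exception (median -0.89) and summed to 2127 to 2278 in WT and 1035 to 1411 in KO mice. The 10 B cell genes were higher in every KO mouse than in any WT mouse (median 1.91), and none passed in the quasi-likelihood fit, although all 10 had an unadjusted p under 0.05. DESeq2, the exact test of edgeR and the quasi-likelihood fit without a filter on low counts each called all 10. Without KO5 the quasi-likelihood fit called 10 of them with a median of 1.01, and without KO4 it called 9. They had sums of 140.0 to 167 in the WT mice, 281 and 322 in KO4 and KO6 and 1136 in KO5. Immunoglobulin genes took 0.0745 to 0.339% of counts in WT and 0.468 to 0.970% in KO mice. Of 8 handling genes, which respond to cooling, heat or tissue handling, the cold-induced Cirbp (0.96, adjusted p = 0.00466) and Rbm3 (0.58, adjusted p = 0.00898) rose and the heat shock gene Hsph1 (-1.90, adjusted p = 0.00466) fell. WT6 stood apart in this list, with summed CPM of 1062 against 422 to 614 in the other mice. Without WT5 no gene of these lists was called, and without WT6 no monocyte or red cell gene was. Without KO6 5 monocyte genes and no red cell gene were called, and without WT4 7 monocyte and 3 red cell genes were. The 10 type 1 genes summed to 6200 to 6272 in WT and 5343 to 6127 in KO mice. The part of these shifts in the type 1 values was not tested.

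The scale chosen for the libraries moved all type 1 values together. When libraries were scaled to Eef2, the reference gene of the study, the median of all tested genes moved by -0.11 and that of the 10 type 1 genes was -0.26, with 9 of the 10 lower in KO mice, since Pdpn (-0.02) and Vegfd (-0.03) changed sign. Relative to the shifted median the type 1 genes kept about the same distance. Of all called genes 58.2% were higher in KO mice with TMM scaling, 39.8% with Eef2 scaling and 70.2% with library totals alone. Rtkn2 was called lower under all 3 scalings.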

How the data were processed

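Lungs of 3 WT and 3 KO mice were profiled by stranded mRNA sequencing with 1 library per mouse. The counts deposited by the authors are whole reads per Ensembl gene (47069 genes) without normalization. The submitters' processing notes name Trimmomatic 0.36, STAR 2.5.3a, Picard 2.9.0, HTSeq 0.6.0 and GRCm38, and the annotation release and strand setting are not given in the sources used here. How reads in overlaps of genes on opposite strands were counted is therefore not known.

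KO and WT mice were compared with the quasi-likelihood test of edgeR 4.0.16 (R 4.3.3) with TMM factors, the default filter on low counts (minimum count 10, minimum total 15) and Benjamini-Hochberg adjustment over 17037 genes. Alternatives used DESeq2 1.42.0, limma 3.58.1, other scalings, filters and tests, the replicate number as a block, and each mouse left out. CPM used TMM-scaled library sizes, exon lengths came from GENCODE mouse release 21, and intervals are 95%. On simulated counts for this comparison (17037 genes, 200 changed), the test recovered 28.3% of genes changed by 0.5 and 65.3% of those changed by 1 on the log2 scale, with 9.35% false calls. Both sizes were larger than any change estimated for the 10 genes. The changed genes were drawn from all tested genes and were fewer than the 1089 called in the data, so these shares do not carry over to the 10 genes.

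The 10 genes, the lists and the alternatives were chosen with earlier results of these data known. Named were the 10 genes, up to 4 genes of each other list by lowest adjusted p, the 5 genes most alike in profile, and Zpbp2, Eef2 and sex-linked genes as checks. A few further genes were named where they differed from the rest of their list. The result of 1 further list is not reported here. Replicates of a group differed by more than sampling noise.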

Additional observations from a re-analysis of the deposited data

How the results depend on the processing

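Across 18 alternatives, Rtkn2 kept its direction in all and lost its call in 4, and Ager, Akap5, Clic5 and Gprc5a kept their direction and stayed uncalled in all. Of the 10 type 1 genes, 1 was called in the reported fit, 3 with DESeq2, 0 with the replicate block, and 0 to 4 when 1 mouse was left out. Of the 17 further type 1 genes, 2 were called in the reported fit, 1 with upper-quartile factors, 1 with library totals, 1 without a filter, 5 with DESeq2, 0 with the replicate block, and 0 to 5 with 1 mouse left out. Over all genes 1089 were called, 1913 with DESeq2, 66 with the replicate block, and 1 to 1278 with 1 mouse left out. The median of the 10 genes (-0.15) was -0.26 with Eef2 scaling and -0.25 to -0.12 with 1 mouse left out. Pdpn changed sign with Eef2 scaling (-0.016). Vegfd changed sign with Eef2 scaling (-0.032), without WT6 (-0.004) and without KO5 (-0.003), and ranged from -0.004 to 0.154 with 1 mouse left out. The cause was not tested.

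Mice with the same number did not deviate together (correlations -0.0169, -0.207 and 0.00867 for pairs 4, 5 and 6), so the numbers were not taken to pair mice, and with the replicate block Rtkn2 had an adjusted p of 0.0748. Depth did not limit these genes, none of which had fewer than 1241 counts in a mouse.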
